A study of Mus musculus with 9 samples.

Results

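Pericytes are the contractile mural cells that wrap retinal capillaries, and 10 genes used to recognise them were followed through RNA sequencing of mouse cells labelled as Müller glia, the radial glia that span the retina. The 10 genes, of 16367 listed in the table of sorted cells, were picked by symbol. Rgs4, Rgs5 and Vtn were chosen because their values were lower in ocular hypertension (OHT) than in sham eyes, and Pdgfrb, Kcnj8, Abcc9, Notch3, Cspg4, Mcam and Higd1b as markers of the cell type. The difference between OHT and sham in the first 3 is therefore part of how they were chosen, and is given as a description without a test. All 10 genes were listed in the sorted table and had a mean of at least 10 normalised counts over its 6 libraries. Of the 10, 9 were listed among the 17035 genes of the table of cultured cells, which does not list Vtn.

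All animals were wild type. The 3 OHT libraries came from mice given 1.2 µL of silicone oil in the anterior chambers of both eyes, and the 3 sham libraries from mice that had the corneal needle incision but no oil. For each of these libraries neural retinas were pooled by 4, dissociated with papain, freed of dead cells and sorted on magnetic beads against ACSA-1 (GLAST), a glutamate transporter that astrocytes also carry. The 3 untreated primary Müller glia cultures were grown from C57BL/6J pups aged 8 to 10 days, on gelatin and in serum, and were passaged. The labels give neither the age of the sham and OHT mice nor the time since the injection. The labels do not say that the culture libraries came from separate preparations, so the spread between them may be technical.

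In capillaries, endothelial cells secrete PDGF-B, which draws pericytes through the receptor PDGFRβ (Pdgfrb), and endothelial Notch ligands act on NOTCH3 of mural cells. Kir6.1 (Kcnj8) and SUR2 (Abcc9) are the pore and the regulatory subunit of the vascular ATP-sensitive potassium (KATP) channel, which ties the tone of mural cells to their metabolic state. RGS proteins shorten signalling through G protein-coupled receptors, including those that set vascular tone. The members are not restricted to pericytes: vitronectin (Vtn) is also a plasma protein, Rgs4 is made by many neurons, and Pdgfrb, Cspg4, Mcam, Notch3 and Abcc9 are also made by other mural or mesenchymal cells.

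Recovered depth ran from 37.8 to 53.6 M (1e6) reads in the sorted libraries and from 66.3 to 76.7 M in the cultures. Marker RNA of microglia and macrophages (12 genes, 34848 to 62867 ppm, reads per 1e6 reads of a library) exceeded that of Müller glia (12 genes, 2490.4 to 12104 ppm) in all 6 sorted libraries, which goes against their label. In the cultures the Müller glia markers summed to between 370.0 and 672 ppm, 8 fibroblast genes to between 6087 and 8629 ppm, and 10 smooth muscle genes to between 12441 and 18787 ppm. The pericyte genes were a small part of the sorted RNA. The 7 marker genes together took 28.5, 24.0 and 21.2 ppm in the sham libraries and 26.0, 6.40 and 9.02 ppm in the OHT libraries, so their sums overlapped. Rgs4, Rgs5 and Vtn, chosen as lower in OHT, took 204, 627 and 665 ppm in sham and 44.2, 28.1 and 68.9 ppm in OHT. In bulk samples like these, fewer cells of a type and less RNA per cell cannot be told apart.

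The 250 bases before the annotated start are shown for Rgs4, Rgs5 and Vtn, the genes chosen as lower in OHT. Of these, Rgs4 and Vtn had nearly the same profile over the 6 sorted libraries.
Rgs4: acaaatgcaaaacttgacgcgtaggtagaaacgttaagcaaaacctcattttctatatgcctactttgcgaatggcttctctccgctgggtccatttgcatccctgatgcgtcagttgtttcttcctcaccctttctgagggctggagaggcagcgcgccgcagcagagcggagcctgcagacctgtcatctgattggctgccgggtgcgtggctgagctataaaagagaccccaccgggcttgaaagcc
Rgs5: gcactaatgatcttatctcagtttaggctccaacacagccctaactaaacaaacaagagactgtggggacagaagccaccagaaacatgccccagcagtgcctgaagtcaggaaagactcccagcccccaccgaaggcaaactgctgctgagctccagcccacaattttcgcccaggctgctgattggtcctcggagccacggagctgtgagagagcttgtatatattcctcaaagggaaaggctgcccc
Vtn: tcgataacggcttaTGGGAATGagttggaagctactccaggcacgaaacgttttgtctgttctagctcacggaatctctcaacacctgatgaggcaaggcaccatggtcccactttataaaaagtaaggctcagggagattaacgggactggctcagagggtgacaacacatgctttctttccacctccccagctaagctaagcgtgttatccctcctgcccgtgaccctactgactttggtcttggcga
The sequences run 5′ to 3′ on each gene's strand and come from RefSeq on build GRCm38.p6, which is older than the mm39 build in the submitters' processing notes. They lie at chr1:169747643-169747892 on the minus strand for Rgs4, chr1:169655251-169655500 on the plus strand for Rgs5 and chr11:78498870-78499119 on the plus strand for Vtn. Rgs4 and Rgs5 are next to each other among the protein-coding genes of chromosome 1, on opposite strands, and Kcnj8 and Abcc9 are neighbours on chromosome 6. Of the members, 8 of 10 had such a window, and Pdgfrb and Higd1b had none.

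Capitals in the Vtn sequence mark TGGGAATG, in which the letters TGGGAA (bound by RBPJ, the DNA-binding partner of Notch) and GGAATG (bound by TEAD factors) overlap. The same 8 letters stood in the window of Abcc9, and the stretch around them is shown for the pair.
Vtn site: taacggcttaTGGGAATGagttggaagc
Abcc9 site: tggtcctgaaTGGGAATGgccggagtga
The stretches of 28 bases lie at chr11:78498874-78498901 and, on the minus strand, chr6:142702478-142702505, and the capitals begin 236 and 221 bases before the start. Searched on both strands, TGGGAA was found in 2 of 8 member windows and in 21.6% of the 32851 windows of all genes. GGAATG was in the same 2 of 8 and in 12.6% of all windows. The joined letters, searched for after both matches had been seen, were in 1.27% of all windows. TAATCC, bound by the photoreceptor factor CRX, was in 0 of 8 and in 6.25% of all windows, and the CArG box, bound by serum response factor in smooth muscle genes, was in 0 of 8 and in 1.47%. These are matches of letters only.

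Rgs4, an inhibitor of Gq and Gi signalling, had 416, 2954 and 4313 normalised counts in the sham libraries and 38.7, 57.6 and 94.6 in the OHT libraries. Normalised counts are reads divided by 1 factor per library, so they compare libraries but not genes. Every OHT library lay below every sham library, and sham 1 was far below the other shams. Mean Rgs4 was 2561 ± 1978 (SD, n = 3) in sham and 63.6 ± 28.4 (SD, n = 3) in OHT, a ratio of 40.3. On the log2(normalised count + 1) scale used for all differences here, OHT minus sham was -4.85 (SE 0.87), and between -5.88 and -4.20 when any 1 library was left out.

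Rgs5, the RGS protein most used to mark pericytes, had 3967, 7355 and 9634 normalised counts in sham and 1937, 214 and 748 in OHT. The groups did not overlap, and the OHT libraries differed among themselves by 9.05-fold with OHT 1 the highest. Means were 6986 ± 2852 in sham and 967 ± 882 in OHT (SD, n = 3 each), a ratio of 7.23 and a log2 difference of -3.27 (SE 0.68). The log2 difference ran from -4.03 without OHT 1 to -2.44 without OHT 2.

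Vtn, which encodes an adhesive glycoprotein of matrix and plasma, had 3577, 14373 and 14363 normalised counts in sham and 929.9, 966 and 1759 in OHT. Again no OHT library reached a sham library, and sham 1 was the lowest sham. The means of 10771 ± 6230.4 and 1218 ± 469 (SD, n = 3 each) gave a ratio of 8.84 and a log2 difference of -2.95 (SE 0.54), which ran from -3.62 without sham 1 to -2.62 without sham 2. As Rgs4, Rgs5 and Vtn were chosen on this contrast, their position among all genes supports nothing further.

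**Figure D1:**
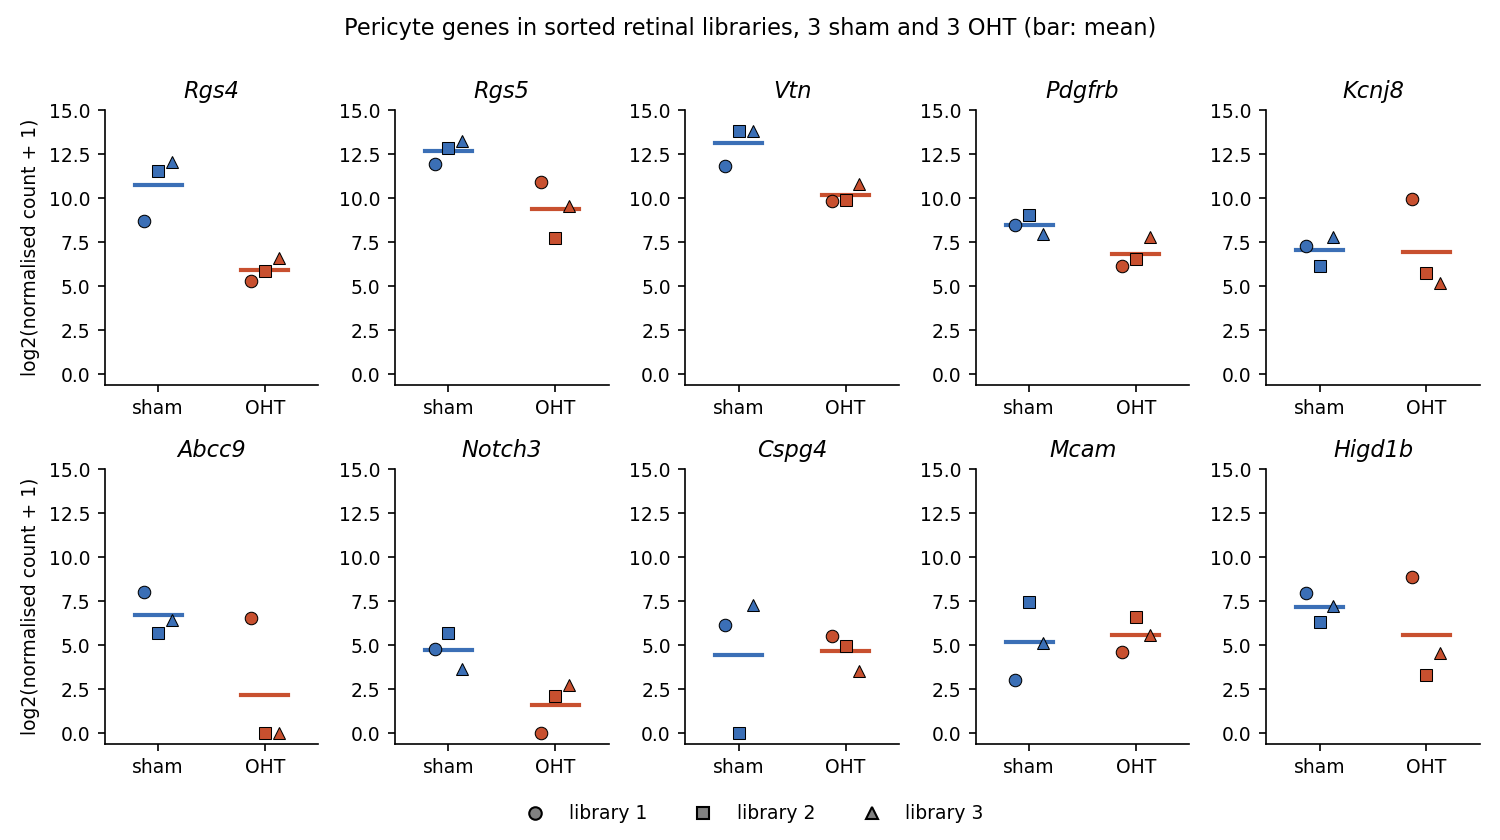
Normalised counts of the 10 pericyte genes in each sorted library, as log2(normalised count + 1), with sham in blue, OHT in red, 1 marker shape per library number and a bar at the group mean. Rgs4, Rgs5 and Vtn were chosen because OHT was lower, and Pdgfrb and Notch3 also show no overlap. OHT 1 (circle) lies above the other OHT libraries in Rgs5, Kcnj8, Abcc9, Higd1b and Cspg4.

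The 7 marker genes were tested with limma across all 14403 genes kept. None passed an adjusted p of 0.05, where 0% of all genes did, the smallest adjusted p of any gene being 0.332. Unadjusted, 1680 genes had p under 0.05. With DESeq2 none of the 7 was called either (smallest adjusted p = 0.290, Pdgfrb), where 1.41% of genes were called lower in OHT, and edgeR called 0 genes in all (1575 at an unadjusted p under 0.05). In 2 of the 7, Pdgfrb and Notch3, every OHT library lay below every sham library, against 9.18% of all genes. Notch3 passed the minimum mean only through sham. As a share of the library Pdgfrb overlapped, leaving 1 of the 7, against 11.4% of all genes. In none of the 7 did every OHT library lie above, against 9.26%. The log2 difference was negative in 5 of the 7, beside 54.8% of all genes. Its median was -1.59, beside -0.12 over all genes kept. With DESeq2 Kcnj8, Higd1b, Cspg4 and Mcam took the opposite sign.

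Pdgfrb, the PDGF-B receptor, had 351, 520.2 and 248 normalised counts in sham and 69.1, 91.4 and 220.4 in OHT. The groups came close in sham 3 and OHT 3. Means were 373 ± 138 and 127 ± 81.7 (SD, n = 3 each) and the log2 difference of -1.66 had an SE of 0.76 (limma adjusted p = 0.427). As a share of the library the 2 nearest libraries met, with 5.82 ppm in sham 3 and 5.83 ppm in OHT 3, so the separation depends on the scaling. By that share 11.4% of all genes were lower in every OHT library. With quantile normalisation the log2 difference was -1.03.

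Notch3, the mural cell Notch receptor, was near the limit of detection in the sorted libraries. It had 26.9, 50.7 and 11.5 normalised counts in sham (26, 55 and 12 reads) and 0, 3.29 and 5.61 in OHT (0, 4 and 7 reads). Every sham library was above every OHT library on both scales, and the gene passed the minimum mean only through sham. Its log2 difference of -3.10 had an SE of 1.58 (limma adjusted p = 0.466). At so few reads the size depended on the settings, with -1.51 at a pseudocount of 10, -2.03 with quantile normalisation and -2.30 without OHT 1.

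Kcnj8, the Kir6.1 pore, went both ways within OHT. It had 152, 71.0 and 221 normalised counts in sham, 1007 in OHT 1, and 52.7 and 35.3 in OHT 2 and OHT 3. OHT 1 was thus the highest of the 6 libraries and the other OHT libraries the lowest, a 28.6-fold range within OHT. The log2 difference of -0.11 (SE 1.22, limma adjusted p = 0.977) became -1.61 without OHT 1 and 0.79 without OHT 3.

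Abcc9, the SUR2 subunit paired with Kir6.1, had 257, 49.8 and 87.1 normalised counts in sham, 91.2 in OHT 1 and 0 in OHT 2 and OHT 3. A count of 0 allows up to 3 reads, or 0.0560 and 0.0636 ppm in these libraries, beside 1.27 to 6.58 ppm in sham. OHT 1, at 1.39 ppm, lay within the sham range. Its log2 difference, -4.54 with an SE of 1.82 (limma adjusted p = 0.385), is set in part by the pseudocount added to the 0s. It was -2.42 with a pseudocount of 10, -2.12 with DESeq2 and -2.24 with edgeR. Without OHT 2 it was -3.45, and without OHT 1 both remaining OHT libraries are at 0, so no fold is given. Abcc9 shares 158 exonic bases with 5330439B14Rik on the opposite strand, and Notch3 shares 488 with Gm17276, in GENCODE M21, and no source used here says whether the counting used strand.

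Higd1b, a HIG1 hypoxia-inducible domain protein enriched in pericytes, had 250, 80.2 and 147 normalised counts in sham and 474, 9.05 and 22.4 in OHT. It followed Kcnj8: OHT 1 was the highest of all and the remaining OHT libraries were the lowest, 52.3-fold apart from highest to lowest. Its mean was 159 ± 85.5 in sham and 168 ± 265 in OHT (SD, n = 3 each), while the log2 difference of -1.59 had an SE of 1.36 (limma adjusted p = 0.629). That value ran from -3.24 without OHT 1 to -0.46 without OHT 2, and was 0.08 with DESeq2.

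Cspg4 (NG2), a surface proteoglycan of pericytes and glial precursors, had 69.2, 0 and 154 normalised counts in sham and 44.2, 30.5 and 10.4 in OHT. The sham libraries held both the lowest and the highest value. Its log2 difference was 0.19 (SE 1.83, limma adjusted p = 0.971), while its mean was 74.4 ± 77.2 in sham and 28.4 ± 17.0 in OHT (SD, n = 3 each), so the sign depends on the 0 in sham 2. Mcam (CD146), an adhesion molecule of mural and endothelial cells, had 7.23, 172 and 33.5 in sham and 23.5, 95.5 and 46.5 in OHT. Its groups overlapped throughout, with a log2 difference of 0.40 (SE 1.33, limma adjusted p = 0.908).

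**Figure D2:**
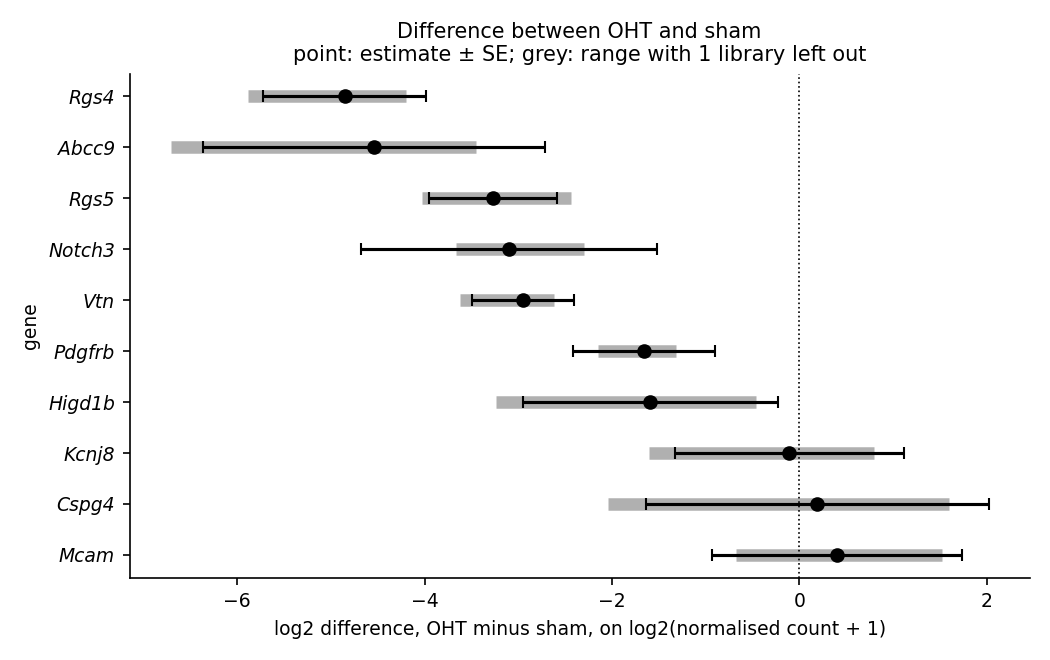
Difference between OHT and sham for each pericyte gene on the log2(normalised count + 1) scale, as point and SE, with a grey band for the range when each of the 6 libraries in turn was left out (5 for Notch3). The bands of Rgs4, Rgs5, Vtn, Pdgfrb, Abcc9, Notch3 and Higd1b stay below 0, and those of Kcnj8, Cspg4 and Mcam cross it. For Rgs4, Rgs5, Vtn, Pdgfrb and Notch3, whose groups do not overlap, the band could not cross 0.

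Across the 6 libraries the members fell into distinct orders, which were described from the same values. Rgs4, Vtn, Pdgfrb and Notch3 each had OHT 1 as the lowest library, followed upwards by OHT 2 and OHT 3. For Notch3 that order rests on 0, 4 and 7 reads. Kcnj8 and Higd1b had OHT 1 as the highest library, Abcc9 had it second, and Rgs5 had it as the highest OHT library. Cspg4 also had OHT 1 as the highest OHT library, but sham 2 as the lowest library. Mcam had OHT 2 as the highest OHT library and sham 1 as the lowest library. Pearson's r of the log2 levels over the 6 libraries, given as a description, was 0.995 for Rgs4 with Vtn and 0.96 for Pdgfrb with Notch3. It was 0.92 for Abcc9 with Higd1b, 0.86 for Kcnj8 with Higd1b, and -0.09 for Rgs4 with Kcnj8. Rgs5 stood between, with r = 0.84 both to Vtn and to Abcc9. The libraries share their depth and their mixture of cell types, and the group difference alone gives a high r among genes low in OHT.

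**Figure D3:**
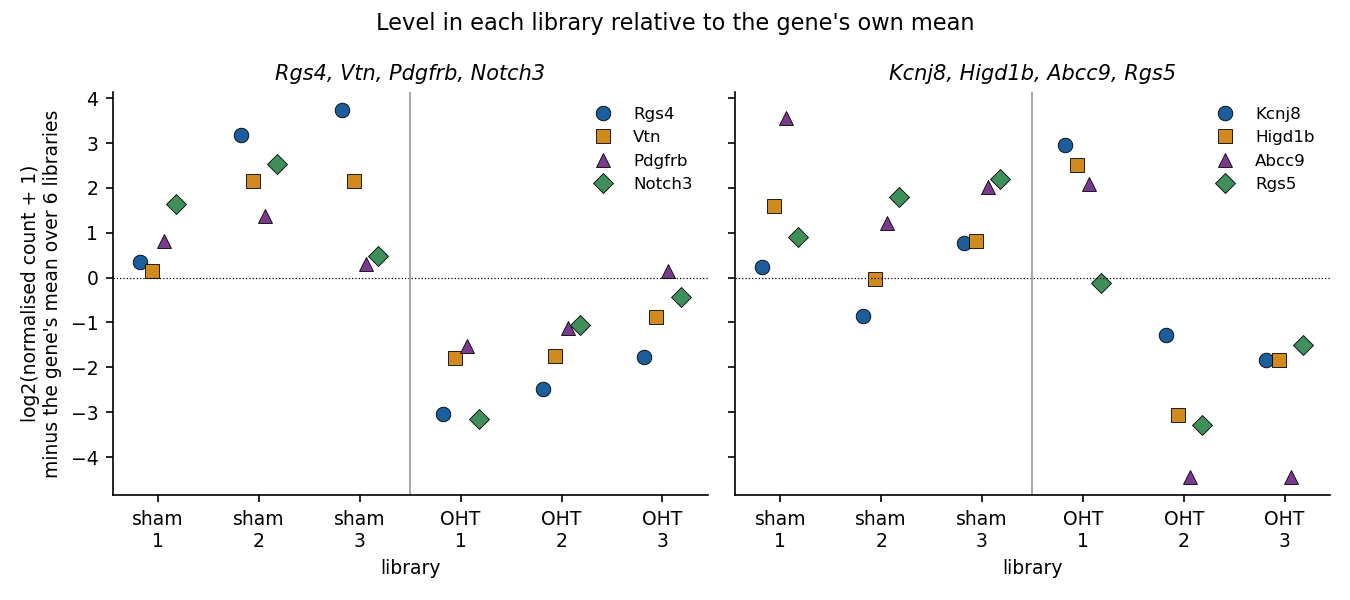
Level of 8 pericyte genes in each sorted library, as log2(normalised count + 1) minus the gene's own mean over the 6 libraries, in 2 panels. On the left OHT 1 is the lowest library for each gene, and on the right OHT 1 is above OHT 2 and OHT 3 for each gene. The genes were divided between the panels by these values, and Cspg4 and Mcam are not shown.

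Marker lists of other cells had profiles close to those of some members. The log2 level of Rgs4 had r = 0.96 to the summed rod markers, 0.94 to astrocyte markers and -0.92 to microglia and macrophage markers over the 6 libraries, and for Vtn these were 0.97, 0.94 and -0.93. Rod markers (12 genes) summed to 2866, 27042 and 21822 ppm in sham and 999, 1173 and 3565 ppm in OHT, overlapping between groups. No rod marker was at 0 throughout a group. DESeq2 called 9 of the 12 lower in OHT, beside 1.41% of all genes, while limma and edgeR called none. Sham 1, lowest in Rgs4 and Vtn among the shams, was also lowest in rod markers. This was not particular to rods. Sham 1 was likewise the lowest sham for Müller glia, astrocyte, fibroblast, amacrine, smooth muscle and other pericyte markers, but not for endothelial markers. Microglia and macrophage markers summed to 53241, 35815 and 34848 ppm in sham and 62867, 53461 and 47096 ppm in OHT, overlapping between groups. By normalised counts, 6 of these 12 genes, among them Aif1, Cd68 and Trem2, were higher in every OHT library, beside 9.26% of all genes. Their list had a median log2 difference of 0.59, and neither limma nor DESeq2 called any of the 12. Pdgfrb and Notch3 had r = 0.96 and 0.98 to the endothelial sum, and Kcnj8 had -0.30. Other lists gave high r as well. Pdgfrb and Notch3 both had 0.91 to amacrine cell markers, and 0.90 and 0.86 to Müller glia markers. Rgs4 and Vtn had 0.83 and 0.86 to the other pericyte markers, and 0.82 and 0.87 to the endothelial sum. To Müller glia markers they had 0.84 and 0.89, and to amacrine cell markers 0.86 and 0.90. Rgs5 had 0.91 to smooth muscle markers. Kcnj8 had r = -0.16 to rod markers and Higd1b 0.15, and both had negative r to the 6 pigment epithelium markers, -0.91 and -0.79. Those markers summed to 15.4, 15.7 and 17.3 ppm in sham and 3.44, 35.2 and 29.2 ppm in OHT, with OHT 1 the lowest of the 6 libraries. What part these other cells have in the members' differences was not tested.

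Of 15 other pericyte markers 13 were kept, and none was called by limma or DESeq2. The summed level overlapped between groups, with 122, 251 and 189.6 ppm in sham and 126, 108 and 140.1 ppm in OHT. In 4 of the 13, S1pr3, Gja4, Foxf2 and Gper1, every OHT library was below every sham library, beside 9.18% of all genes, and the median log2 difference was -1.09. Of these, Gja4, Foxf2 and Gper1 passed the minimum mean only through sham. Anpep went the other way, with 19.6, 9.22 and 1444 normalised counts in sham and 1460.5, 2195 and 408 in OHT. Its groups overlapped, with a log2 difference of 4.02 and an SE of 1.52 (limma adjusted p = 0.370). Of the 2 genes not kept, Cd248 had 4, 0 and 50 reads in sham and 0 in OHT, and Tbx18 had 0 in sham and 6, 0 and 0 in OHT. Gja4, the connexin 37 gene of arteriolar mural and endothelial cells, had 149.8, 21.2 and 98.6 normalised counts in sham and 8.29, 0 and 0 in OHT. Cox4i2, a mitochondrial cytochrome oxidase subunit with the highest mean normalised count of this list, had 1919, 5093 and 1808 in sham and 2911, 1236 and 3013 in OHT, so the groups overlapped. Ano1, a chloride channel, had 1503 in OHT 1 against 193 to 395 in sham and 28.8 and 58.5 in the other OHT libraries. Ndufa4l2 showed the same order, with 840.1 in OHT 1 and 19.8 and 131 in the others. Anpep, Ano1 and Ndufa4l2 were picked out after their values were seen.

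Smooth muscle and endothelial markers were also low in OHT in part. Of 8 smooth muscle genes kept, 8 had a negative log2 difference, beside 54.8% of all genes, with a median of -2.90. In 3 of the 8, Des, Myh11 and Pln, every OHT library was below every sham library, beside 9.18% of all genes. Of these, Des and Pln passed the minimum mean only through sham. Des, the muscle intermediate filament desmin, had 71.3, 67.3 and 14.4 normalised counts in sham and 0 in all 3 OHT libraries, at least 17.0-fold lower with 3 reads allowed per library. With Des at that bound, the median was -2.90. The list's sum was 38.8, 53.2 and 85.0 ppm in sham and 38.9, 6.89 and 31.5 ppm in OHT. All 14 endothelial genes had a negative log2 difference, with a median of -1.68. Their sum was 339, 575 and 260.3 ppm in sham and 121, 143 and 227 ppm in OHT, without overlap. In 3 of the 14, Esam, Ptprb and Egfl7, every OHT library was below every sham library, beside 9.18% of all genes. Esam, an endothelial junction protein with the largest difference of these, had 639, 847 and 324 normalised counts in sham and 52.5, 224 and 99.4 in OHT. Kdr, with the highest mean of the list, overlapped, with 4379, 9519 and 6195 in sham and 3992, 2599.6 and 4845 in OHT (log2 difference -0.79). None of the genes of both lists passed the adjusted threshold of limma, and DESeq2 called Des alone (adjusted p = 0.0318).

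Around the RGS members, 17 of 19 other RGS family genes were kept. Limma called none, and DESeq2 called Rgs18 (adjusted p = 0.00866), where it called 0.389% of genes higher in OHT. Every OHT library was above every sham library for Rgs1, Rgs2 and Rgs18, 3 of 17 beside 9.26% of all genes. For Rgs8, Rgs13 and Rgs20 every OHT library was below, 3 of 17 beside 9.18%, and the median log2 difference was -0.17. Rgs18, a family member of platelets and other blood cells, had 63.0, 89.5 and 119.6 normalised counts in sham and 1373, 316 and 366 in OHT, with a log2 difference of 2.61 (SE 0.78, limma adjusted p = 0.332). Rgs20 had 243, 542 and 406 in sham and 60.8, 18.1 and 141 in OHT.

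Around Pdgfrb, none of 6 other PDGF genes was called by limma or DESeq2 or separated the groups. Pdgfb, the endothelial ligand of the receptor, overlapped between groups with 1853, 960.2 and 1054 normalised counts in sham and 1347, 1801 and 1949 in OHT. Pdgfra, the receptor of glial precursors and fibroblasts, had 0, 4380.5 and 5361 in sham and 420.0, 0 and 169.9 in OHT. Among 13 genes of pericyte recruitment and vessel stability, 2 of 13, Angpt2 and Cdh2, were lower in every OHT library (9.18% of all genes) and 2 of 13, Smad4 and Tgfbr2, were higher (9.26%), with a median log2 difference of -0.23. Angpt2, a destabilising ligand of the endothelial TIE2 receptor, passed the minimum mean only through sham. It had 146, 292 and 329 in sham and 13.8, 0 and 14.4 in OHT. This is a log2 difference of -5.31 with an SE of 1.33 (limma adjusted p = 0.332), and DESeq2, unlike limma, called the gene (adjusted p = 0.00529).

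Around Notch3, 14 other Notch pathway genes were kept, with a median log2 difference of -1.10. Limma called none, and DESeq2 called Hey2 (adjusted p = 0.0224). Hey2, Nrarp and Notch1, 3 of 14, were lower in every OHT library, beside 9.18% of all genes, and 1 of 14, Rbpj, was higher, beside 9.26%. Hey2, a transcription factor induced by Notch, had 232, 622 and 553 normalised counts in sham and 69.1, 87.3 and 99.4 in OHT. Its profile was close to that of Rgs4. Of the 2 other KATP subunits, Abcc8 (SUR1) had 16.5, 7.38 and 43.1 in sham and 0, 0 and 3.21 in OHT, and Kcnj11 (Kir6.2) overlapped. None of 8 vitronectin receptors and partners separated the groups, and their median log2 difference was -0.16. Itgb5, an integrin subunit with the highest mean of that list, had 20113, 12952 and 11134 in sham and 22939, 18882 and 16306 in OHT.

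The genes whose profile was most like that of each of 4 members were taken from 11475 genes with a mean of at least 100, predicted genes without a symbol name left out, by Pearson's r over the 6 sorted libraries. For Rgs4 these were Nat8f1 (r = 0.9988), Vtn (0.9951) and Hey2 (0.9939), and 72 genes had r of at least 0.95. For Vtn they were Ankrd33b (0.9970), Nat8f1 (0.9960) and Rgs4, with 82 genes at that level. Rgs5 had fewer such genes, 11, led by Slc37a3 (0.9928), Btbd17 (0.9808) and Sytl2 (0.9766). Pdgfrb was closest to Sncg (0.9976), Sema5a (0.9971) and Scn8a (0.9951), with 57 genes at that level. Sncg, a gene of retinal ganglion cells, had 220.0, 289 and 150.2 normalised counts in sham and 49.7, 56.8 and 133 in OHT, the same order of libraries as Pdgfrb. As Rgs4, Rgs5 and Vtn were chosen as lower in OHT, the group difference alone gives other genes low in OHT a high r to them. Of the genes named, Rgs4, Hey2, Ankrd33b, Btbd17, Sytl2, Sncg and Scn8a reached the mean of 100 only through sham.

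The primary cultures held another set of these genes. The 2 tables were normalised separately, so levels were set side by side in ppm without a test. Pdgfrb took 198, 241 and 201 ppm of the cultures, beside 5.82 to 13.2 ppm in sham and 1.05 to 5.83 ppm in OHT. Its culture mean of 213 ± 24.2 ppm (SD, n = 3) was 22.8 times the sham mean. Cspg4 took 56.8, 103 and 73.0 ppm of the cultures, 43.1 times the sham mean. Mcam took 39.7, 32.2 and 23.9 ppm, 17.9 times the sham mean, and Notch3 took 3.72, 4.57 and 4.48 ppm, 5.69 times the sham mean. These 4 of 9 listed members were above all 6 sorted libraries in every culture, against 32.5% of 15438 genes in both tables.

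Rgs5, Kcnj8 and Higd1b, 3 of the 9, were below all sorted libraries in every culture, against 16.5% of genes. Rgs5 had 3.44, 2.58 and 3.10 ppm in the cultures, under the 4.85 ppm of the lowest sorted library. Kcnj8 had 0, 6 and 4 reads in the cultures and Higd1b 0, 0 and 5 reads, at depths where 1 read is worth 0.0130 to 0.0151 ppm. Abcc9 had 3, 0 and 2 reads, so both subunits of the vascular KATP channel were at the limit of detection there. Rgs4, at 6.59, 6.48 and 4.35 ppm, lay above all OHT libraries and below all sham libraries. Acta2, the smooth muscle actin gene, took 13250, 9727 and 8134 ppm of the cultures and 0.0212 to 18.0 ppm of the sorted libraries.

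**Figure D4:**
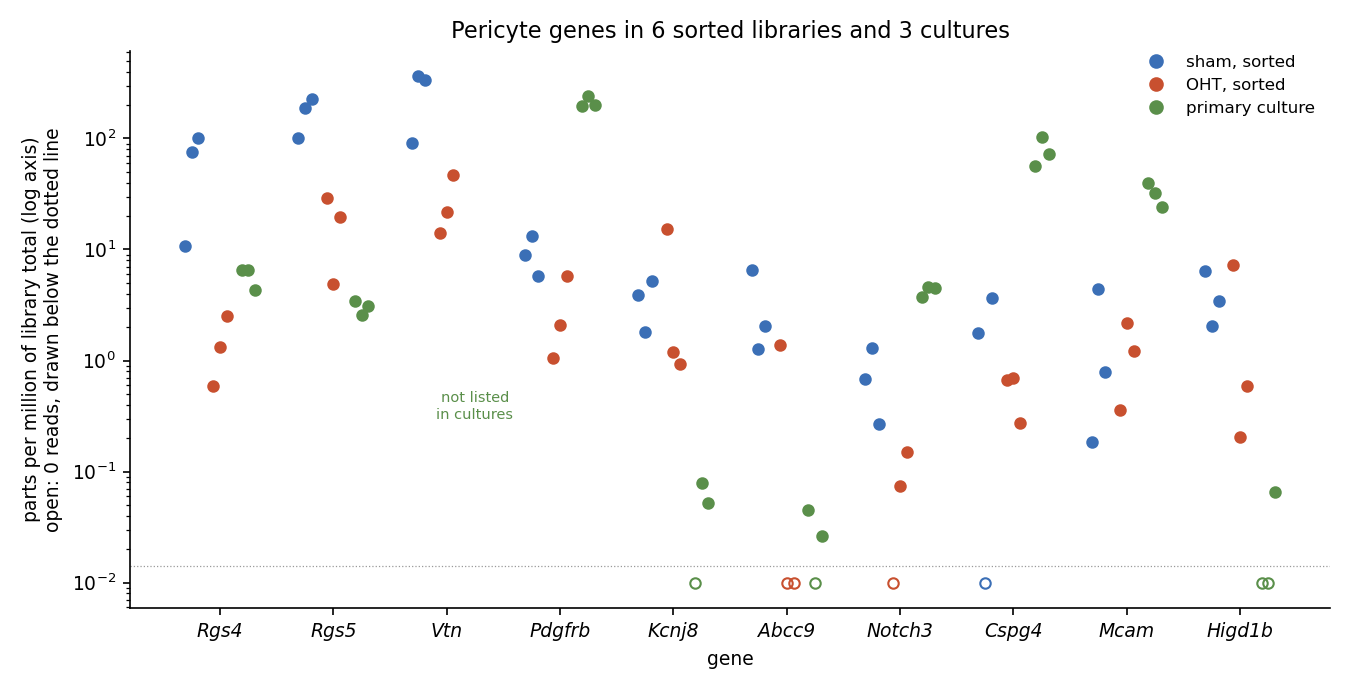
Share of each library's reads in ppm, on a log axis, for the 10 pericyte genes in 3 sham (blue), 3 OHT (red) and 3 culture (green) libraries, with open points for 0 reads. Pdgfrb, Notch3, Cspg4 and Mcam are higher in the cultures than in any sorted library, and Rgs5, Kcnj8 and Higd1b are lower.

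Compared per kb of exon, which allows genes to be set beside one another, Vtn led the members in sham with 152 ± 86.4 ppm per kb (SD, n = 3). Rgs5 followed with a mean of 37.8 (22.3 to 49.8) and Rgs4 with 21.2 ± 15.9 ppm per kb. Each Vtn value in sham was above each Rgs5 value, while Rgs4 and Rgs5 overlapped. Higd1b had 4.68 ± 2.62, Pdgfrb 1.71 ± 0.678 and Kcnj8 1.42 ± 0.671 ppm per kb, with Higd1b and Pdgfrb meeting at 2.41 and Pdgfrb and Kcnj8 overlapping. Mcam, Abcc9, Cspg4 and Notch3 had the lowest means, at 0.597, 0.394, 0.221 and 0.0934 ppm per kb. Mcam (0.0619 to 1.47) and Abcc9 (0.151 to 0.786) overlapped Kcnj8 (0.709 to 2.04), so that order is one of means only. In OHT, Vtn had 15.8 ± 9.71 (8.10 to 26.7) and Rgs5 3.97 ± 2.73 (1.07 to 6.48) ppm per kb, without overlap. Rgs4, at 0.200 to 0.851, was below both. Higd1b ran from 0.242 to 8.50 and Kcnj8 from 0.366 to 6.01 ppm per kb, the high end being OHT 1, so their place among the members differed between the OHT libraries. In the cultures Pdgfrb led with 38.9 ± 4.41 ppm per kb, followed by Mcam with 10.7 ± 2.65 and Cspg4 with 9.54 ± 2.87, whose ranges overlapped. Rgs4 had 1.97 ± 0.429 and Rgs5 0.669 ± 0.0954 ppm per kb there.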

How the data were processed

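RNA from the 9 libraries went through a SMARTer low-input kit and was read as pairs of 150 bp, per the labels' protocols. The submitters' processing notes name bcl2fastq 2.20, Trim Galore 0.6.6, FastQC 0.11.9, STAR 2.7.1a and mm39; the counter, annotation and normalisation tool were not given in the sources used here. The deposited signal is 1 normalised value per gene and library: per the deposited values, a read count divided by 1 factor per library, not by length. Dividing by the smallest step gave whole reads for 100% of values (tolerance 0.05 reads), which in culture 3, whose step of 1.0073 is near 1, is no independent check. The 2 tables were normalised separately, and 0 columns were without a sample. Ppm are recovered reads per library total, and 1 read was worth 0.0130 to 0.0264 ppm. A count of 0 allows up to 3 reads, a limit for counting error only, since amplified reads are not independent molecules.

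OHT was compared with sham by limma 3.58.1 (R 4.3.3) on log2(value + 1), in 14403 genes with a mean of at least 10. A variance trend and Benjamini-Hochberg adjustment over all genes were used, with a threshold of 0.05. For low genes the log2 difference could be smaller than with DESeq2 (Des, -5.40 against -8.16) or larger (Abcc9, -4.54 against -2.12). DESeq2 1.42.0 and edgeR 4.0.16 on the recovered reads, other scalings, pseudocounts and filters, a replicate block and leaving out each library were alternatives. The script was tested on simulated data. Genes named from a list were up to 3 kept genes with the largest difference among those whose groups did not overlap, and the most abundant gene; others were named after their values were seen. The members and lists were chosen with earlier results of these data known. Sequences, neighbours and exon lengths came from RefSeq GRCm38.p6 and GENCODE M21, not the files' build, by symbol.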

Additional observations from a re-analysis of the deposited data

How the results depend on the processing

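The count of marker genes past the threshold was 0 under every alternative run, with 7 tested in each except for 3 at a minimum mean of 100 and 6 without sham 2. Over all genes the count was 0, but 250 with DESeq2 (54 higher, 196 lower), 2 with a replicate block, and 0 to 17 when 1 library was left out (12, all lower, without sham 1, and 17, all higher, without sham 3). In the other gene lists it was 19 with DESeq2 and 0 to 5 with 1 library left out, DESeq2 adding Angpt2 (-4.78), Des (-8.16), Hey2 (-2.46) and Rgs18 (2.92 log2). Same-numbered libraries showed no shared deviation from their group means (r of 0.078, -0.025 and -0.045). Such values cannot tell whether these libraries were handled together. The replicate block called none of the 7 markers.

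Signs were not stable for members whose groups overlapped. The log2 difference of Kcnj8 was 1.30 with DESeq2, 1.18 with edgeR, 0.27 with quantile normalisation, and -1.61 to 0.79 with 1 library left out. Cspg4 was at -1.39, -1.48 and, with a pseudocount of 10, -0.51, and between -2.04 and 1.60 with 1 library left out. Mcam was at -0.36 with DESeq2 and -0.42 with edgeR, and between -0.68 and 1.52 with 1 library left out. Without sham 1 it was -0.68 and without OHT 2 -0.10, while Cspg4 was -0.23 without OHT 1 and -2.04 without sham 2. Kcnj8 was 0.51 without OHT 2, 0.79 without OHT 3 and 0.25 without sham 3. Higd1b was at 0.08 with DESeq2, Cox4i2 at 0.19 without OHT 2 and 0.25 without sham 2 (-0.50 to 0.25 with 1 library left out), and Tgfbr1 at -0.09 with quantile normalisation; the cause was not tested. Rgs4, Rgs5, Vtn, Pdgfrb, Abcc9 and Notch3 kept a negative log2 difference under each alternative that gave a value, Notch3 falling under the minimum mean without sham 2. For Rgs4, Rgs5, Vtn, Pdgfrb and Notch3, whose groups did not overlap, leaving out 1 library could not change the sign. Rgs4, Rgs5 and Vtn had been chosen for that sign. Scaling to library totals, an alternative chosen after seeing the data, moved the median of all genes from -0.12 to -0.36. Scaled to a total without the 20 most abundant genes, the log2 ratio of cultures over sorted libraries was -2.84 for Rgs4, -5.33 for Rgs5, 4.78 for Pdgfrb and 3.04 for Notch3, without a change of sign. With 3 libraries a group, only differences far above the spread could pass.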
